A study of Mus musculus with 16 samples.

Results

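Transcripts of the pyruvate dehydrogenase complex and of the enzymes that switch it off and on were followed in mouse left ventricles with and without PKM2. Of the 55492 genes in the table, 10 were chosen by name: the complex subunits Pdha1, Pdhb, Dlat and Pdhx, the kinases Pdk1, Pdk2, Pdk3 and Pdk4, and the phosphatases Pdp1 and Pdp2. All 10 had a mean of at least 10 normalized counts and were tested. On GRCm38.p6 (mm10) the genes lie at chr2:71873215-71903858 (Pdk1), chr11:95026258-95041371 (Pdk2), chrX:93764616-93832150 (Pdk3), chr6:5483351-5496278 (Pdk4), chr4:11958183-11966450 (Pdp1), chr8:104591472-104599026 (Pdp2), chr14:8165991-8173303 (Pdhb), chr9:50634633-50659780 (Dlat) and chr2:103021055-103073513 (Pdhx), and Pdha1 is placed further on. A normalized count is the number of reads on a gene divided by the DESeq2 size factor of its library.

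Ventricles came from 16 male C57BL/6 mice aged 8 to 12 weeks. PKM2fl/fl mice carry floxed Pkm alleles and served as the controls, and PKM2-/- mice lack exon 10 of Pkm in all tissues after germline deletion by CMV-Cre, with the Cre allele then bred out. Each genotype had 2 untreated hearts (baseline), 3 hearts taken 3 days after sham surgery, and 3 hearts taken 3 days after myocardial infarction (MI) by permanent ligation of the left anterior descending artery. The deletion was not limited to the heart, so effects that start in the heart and in other organs cannot be told apart.

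Pyruvate dehydrogenase sits in the mitochondrial matrix and turns pyruvate, the product of glycolysis, into acetyl-CoA for the TCA cycle. Phosphorylation of its E1 alpha subunit by the PDK kinases turns it off, and the PDP phosphatases turn it back on, so the pair sets whether glucose carbon is burned. The heart burns mostly fatty acids and is known for high PDK4 and PDK2, and PDK4 rises with fasting in this tissue. Transcript levels do not show the phosphorylation or the activity of the enzyme.

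Library depth was 20623769 to 71855101 reads on genes, and the members rested on 60 to 37489 reads per heart. Loci related to rRNA took 15.8 to 46.1% of reads, with 17.3 and 22.1% in the PKM2fl/fl and 43.9 and 39.7% in the PKM2-/- baseline hearts. Reads on Pkm as a whole gene gave 7779 to 12076 normalized counts in the 8 PKM2fl/fl hearts and 10120.2 to 16113 in the 8 PKM2-/- hearts. Since PKM1 and PKM2 are read from the same gene, this value does not check the deletion of exon 10. All 12 cardiomyocyte markers were detected in every group, as the tissue label requires. Their summed level was 1128710 to 1409030 normalized counts in the 10 hearts without MI and 237028 to 545902 in the 6 hearts with MI. Replicate 3 of the PKM2fl/fl MI hearts stood apart from the other PKM2fl/fl MI hearts, with 237028 against 545902 and 534382. Genotype differences that gain a call without that heart are given with and without it.

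The first question was what infarction did to these genes in hearts that have PKM2 and in hearts that lack it. In PKM2fl/fl hearts, 8 of the 10 genes fell and 1, Pdk3, rose after MI against sham. In PKM2-/- hearts, 9 fell and Pdk3 again rose. A gene was called where its Benjamini-Hochberg adjusted p from limma was under 0.05. Across all 20576 genes tested, 50.1% were called in PKM2fl/fl hearts (25.3% lower and 24.8% higher) and 56.8% in PKM2-/- hearts (28.1% lower and 28.7% higher). Over the 10 genes, the log2 fold change had a median of -1.28 in PKM2fl/fl and -1.46 in PKM2-/- hearts, beside 0.00 and 0.01 over all genes tested. Called genes that also fell at least 2-fold made up 11.1% of all genes in PKM2fl/fl and 14.3% in PKM2-/- hearts. Among the 10 genes, 6 and 8 did so. Sham and MI hearts did not overlap for 9 of the 10 genes in PKM2fl/fl and all 10 in PKM2-/- mice, beside 59% and 62.3% of all genes. Loci related to rRNA also differed in their share of reads, at 22.9, 15.8 and 27.8% in PKM2fl/fl sham hearts against 43.8, 19.8 and 44.7% in MI hearts, and at 28.6 to 46.1% against 16 to 34.4% in PKM2-/- hearts. With counts scaled to reads outside rRNA-related and mitochondrial genes, 9 and 10 of the 10 genes were called for MI against sham, as many as without that scaling. These are bulk tissue values, in which fewer cells of a type and less RNA per cell cannot be told apart.

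**Figure D1:**
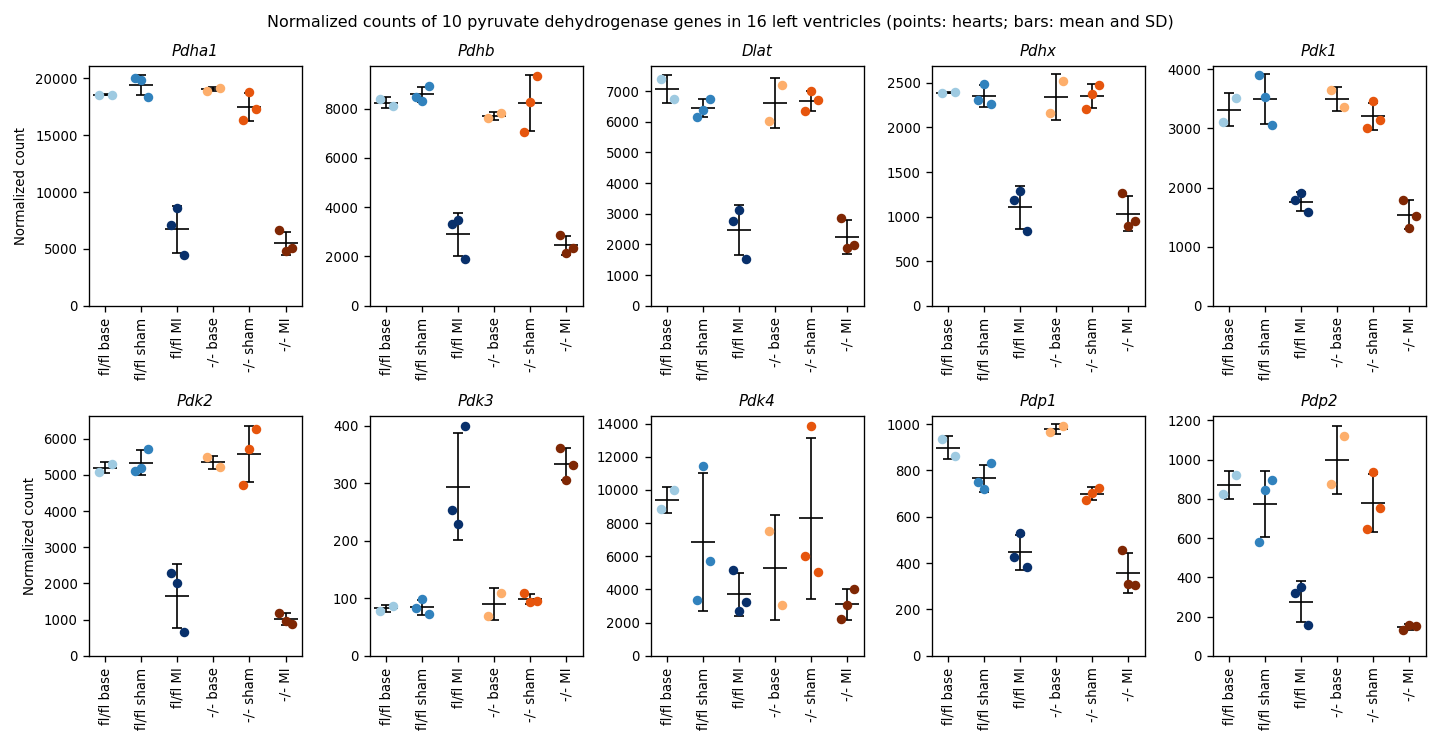
Normalized counts (y axis, starting at 0) of the 10 genes in 16 hearts by genotype and treatment, with points for hearts and bars for the group mean and SD. After MI all genes but Pdk3 and Pdk4 lie below every sham and baseline heart of the same genotype, Pdk3 lies above them, and Pdk4 is scattered in every group without MI but the PKM2fl/fl baseline.

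Pdha1 encodes the catalytic E1 alpha subunit, the target of the kinases. It had 20025, 19843 and 18378 normalized counts in the PKM2fl/fl sham hearts and 7145, 8574 and 4463 in the MI hearts. The PKM2-/- values were 16380.3, 18794 and 17289 in sham and 6670.1, 4808 and 5058 in MI hearts. In both genotypes every MI heart was below every sham heart. The log2 fold change was -1.58 (SE 0.19, adjusted p = 8.69e-06) in PKM2fl/fl and -1.68 (SE 0.19, adjusted p = 3.16e-06) in PKM2-/- hearts (limma). Pdha1 lies on chromosome X (160122219 to 160138430, minus strand, GRCm38.p6) and overlaps Map3k15, which held 1361 to 13272 reads per heart with log2 fold changes of -1.64 in PKM2fl/fl and -1.57 in PKM2-/- hearts. The strand setting of the counting is not given in the sources used here, so reads shared between the genes are uncertain. Pdha2, the testis copy of the subunit, was listed at 0 reads in all 16 hearts.

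Pdhb encodes the E1 beta subunit, which completes the E1 heterotetramer. It had 8491, 8318 and 8913 normalized counts in PKM2fl/fl sham hearts and 3317, 3493 and 1897 in MI hearts. PKM2-/- hearts had 7059, 8285 and 9335 after sham surgery and 2888, 2127 and 2334 after MI. The groups did not overlap in either genotype, with log2 fold changes of -1.61 (SE 0.19, adjusted p = 6.99e-06) and -1.75 (SE 0.19, adjusted p = 2.09e-06, limma).

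Dlat encodes E2, the dihydrolipoamide acetyltransferase that forms the core of the complex. Its values were 6172, 6388 and 6758 in PKM2fl/fl sham and 2762, 3115 and 1535 in PKM2fl/fl MI hearts, and 6349, 6989.6 and 6723 in PKM2-/- sham and 2869.7, 1879 and 1981 in PKM2-/- MI hearts. No MI heart reached a sham heart, and the log2 fold changes were -1.44 (SE 0.21, adjusted p = 4.70e-05) and -1.60 (SE 0.21, adjusted p = 1.23e-05, limma). Pdhx encodes the E3-binding protein, which holds E3 onto the core. It had 2312, 2486 and 2259.9 normalized counts in PKM2fl/fl sham and 1184, 1289 and 835 in PKM2fl/fl MI hearts. Its PKM2-/- values were 2209, 2370.3 and 2480.1 in sham and 1262, 895 and 945 in MI hearts. Pdhx also separated the groups, but its log2 fold changes of -1.12 (SE 0.15) and -1.20 (SE 0.15) were the smallest of the 4 subunits in both genotypes (adjusted p = 2.50e-05 and 8.42e-06, limma).

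Among the MI hearts of PKM2fl/fl mice, replicate 3 had the lowest value of all 4 subunits. Among the MI hearts of PKM2-/- mice, replicate 1 had the highest. The level of Dlat per kb of exon was 1.39 ± 0.11 times that of Pdhx in PKM2fl/fl sham hearts and 1.11 ± 0.16 times in MI hearts (SD, n = 3 each). In PKM2-/- hearts this ratio was 1.44 ± 0.06 in sham and 1.09 ± 0.05 in MI hearts (SD, n = 3 each), and no MI heart overlapped a sham heart in either genotype. The ratio of Pdha1 to Pdhb, 2.08 ± 0.16 in sham and 2.13 ± 0.14 in MI hearts of PKM2fl/fl mice and 1.97 ± 0.24 and 2.06 ± 0.07 in those of PKM2-/- mice (SD, n = 3 each), overlapped between treatments. That of Pdha1 to Dlat overlapped in PKM2fl/fl hearts (8.26 ± 0.74 in sham and 7.51 ± 0.44 in MI) but not in PKM2-/- hearts (7.14 ± 0.18 and 6.77 ± 0.37; SD, n = 3 each). How many pairs of genes change their ratio without overlap was not counted.

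Pdk1, a kinase known as a target of HIF-1, had 3913, 3532 and 3057 normalized counts in PKM2fl/fl sham hearts and 1785, 1903 and 1587 in MI hearts. PKM2-/- hearts had 3009.5, 3459.5 and 3148 after sham surgery and 1792, 1314 and 1523 after MI. All MI hearts were below all sham hearts, and the log2 fold changes were -0.99 (SE 0.12, adjusted p = 1.28e-05) and -1.06 (SE 0.12, adjusted p = 4.27e-06, limma). Pdk1 had the smallest spread within groups of the 10 genes, with an SD of 0.16 on the log2 scale.

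Pdk2, the broadly expressed kinase of heart and skeletal muscle, fell most of the 4 kinases. It had 5105, 5188 and 5723 normalized counts in PKM2fl/fl sham hearts and 2288, 2022 and 658 in MI hearts. With PKM2 deleted, it had 4731, 5702 and 6269 in sham hearts and 1193, 956 and 887 in MI hearts. The MI hearts were below the sham hearts without overlap, and replicate 3 of the PKM2fl/fl MI hearts was the lowest of the 16. Gm11513, which overlaps Pdk2, held 14 to 199 reads per heart. The log2 fold change of Pdk2 was -1.88 (SE 0.32, adjusted p = 1.70e-04) in PKM2fl/fl and -2.46 (SE 0.32, adjusted p = 1.07e-05, limma) in PKM2-/- hearts. Without replicate 3 of the MI hearts, the PKM2fl/fl value was -1.31 (adjusted p = 2.40e-06, limma).

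Pdk3, the X-linked kinase that is low in heart, was the only member that rose. It had 82.8, 98.5 and 72.1 normalized counts in PKM2fl/fl sham hearts and 254, 229 and 401 in MI hearts. Values of 109, 94.0 and 94.9 in PKM2-/- sham hearts rose to 362, 307 and 332 in PKM2-/- MI hearts. Every MI heart was above every heart without MI, and the log2 fold changes were 1.76 (SE 0.21, adjusted p = 1.08e-05) and 1.74 (SE 0.21, adjusted p = 7.38e-06, limma). Behind these values were 60 to 147 reads a heart without MI and 164 to 483 with MI.

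Pdk4, the kinase induced by fasting and fatty acids through PPAR factors, varied most. It had 3383, 11466 and 5726 normalized counts in PKM2fl/fl sham hearts and 5172, 2700.5 and 3273 in MI hearts. These groups overlapped, and the log2 fold change of -0.76 (SE 0.45, adjusted p = 0.176, limma) was not called and ran from -0.30 to -1.18 when 1 heart was left out. In PKM2-/- it had 6013, 13877 and 5026 in sham hearts and 2199, 3066 and 4052 in MI hearts, which did not overlap, with a log2 fold change of -1.31 (SE 0.45, adjusted p = 0.0214, limma). That call was lost without replicate 2 of the sham hearts (log2 -0.87, adjusted p = 0.121) and without replicate 1 of the MI hearts (log2 -1.09, adjusted p = 0.0860). The difference between the genotypes in the MI effect was -0.55 (SE 0.64, adjusted p = 0.846, limma), so the call in PKM2-/- hearts and not in PKM2fl/fl hearts was not shown to differ. Over the 10 hearts without MI the highest Pdk4 value was 4.52 times the lowest, against 1.17 to 1.92 times for the other 9 genes. The SD of Pdk4 within groups, 0.67 on the log2 scale, was larger than that of 91.2% of the 20576 genes tested.

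Pdp1, the calcium-sensitive phosphatase of muscle mitochondria, had 749, 719 and 832 normalized counts in PKM2fl/fl sham hearts and 428, 528 and 381 in MI hearts. The PKM2-/- hearts gave 670.4, 703 and 726 after sham surgery and 458, 309.9 and 304 after MI. The groups did not overlap, and the log2 fold changes were -0.79 (SE 0.15, adjusted p = 4.03e-04) and -0.99 (SE 0.15, adjusted p = 4.01e-05, limma). Pdp2, the phosphatase that does not depend on calcium, had 582, 845 and 893 normalized counts in PKM2fl/fl sham hearts and 322, 348 and 159 in MI hearts. PKM2-/- sham hearts had 648, 938 and 754 and PKM2-/- MI hearts had 131, 158 and 154. The groups again stayed apart, and the log2 fold changes of Pdp2 were -1.54 (SE 0.25, adjusted p = 1.17e-04) and -2.38 (SE 0.25, adjusted p = 1.72e-06, limma).

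**Figure D2:**
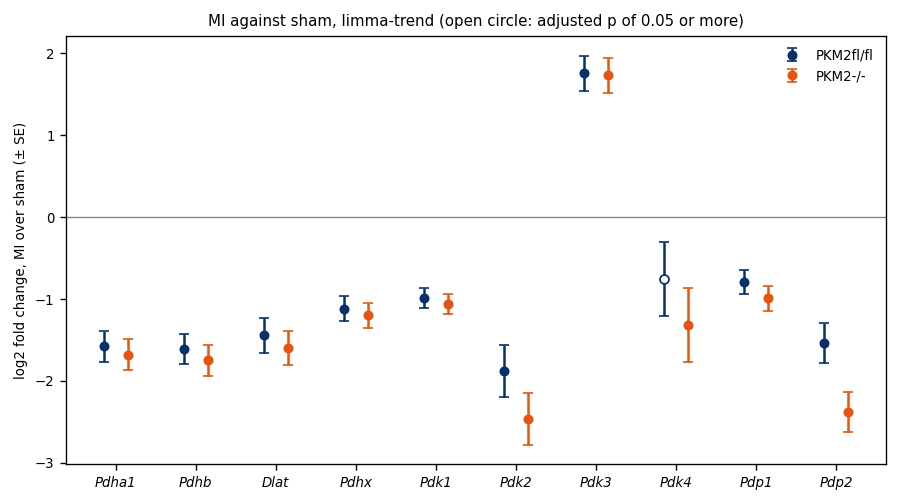
Log2 fold change of MI over sham (y axis) with its standard error from limma for the 10 genes (x axis) in PKM2fl/fl (blue) and PKM2-/- (orange) hearts, with an open circle where the adjusted p was 0.05 or more. Pdk3 lies near 1.7 in both genotypes, the other 9 genes lie below 0, and Pdk2 and Pdp2 reach -2.46 and -2.38 in PKM2-/- hearts.

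The promoters of 3 kinases are shown for the kinase that fell most (Pdk2), the kinase that rose (Pdk3) and the kinase that varied most (Pdk4). Each is the 250 bases before the annotated start in RefSeq on GRCm38.p6 (mm10), read 5′ to 3′ on the gene's own strand. Capitals mark ACGTG or GCGTG, the cores of the HIF site, and CCAAT, on either strand. Where the cores overlap, as in CACGTG, the run of capitals is longer.
Pdk2, upstream of the outer of its 2 starts, minus strand, chr11:95041372-95041621: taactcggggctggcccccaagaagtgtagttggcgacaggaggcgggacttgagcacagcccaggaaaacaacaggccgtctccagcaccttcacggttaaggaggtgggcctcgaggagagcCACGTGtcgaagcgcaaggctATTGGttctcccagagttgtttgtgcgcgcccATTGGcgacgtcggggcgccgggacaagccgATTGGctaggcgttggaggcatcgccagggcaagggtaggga
Pdk3, minus strand, chrX:93832151-93832400: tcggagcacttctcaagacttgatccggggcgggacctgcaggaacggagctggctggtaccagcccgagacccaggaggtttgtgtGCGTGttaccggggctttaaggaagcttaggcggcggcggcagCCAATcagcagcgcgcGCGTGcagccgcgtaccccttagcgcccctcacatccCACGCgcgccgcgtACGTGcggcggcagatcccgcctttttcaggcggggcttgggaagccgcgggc
Pdk4, minus strand, chr6:5496279-5496528: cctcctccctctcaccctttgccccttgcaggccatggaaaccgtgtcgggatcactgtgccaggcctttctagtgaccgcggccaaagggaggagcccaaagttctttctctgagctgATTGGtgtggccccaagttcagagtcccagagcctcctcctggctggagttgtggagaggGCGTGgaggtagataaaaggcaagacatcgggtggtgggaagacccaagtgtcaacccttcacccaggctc

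In these 250 bases, Pdk3 held 3 GCGTG, 1 ACGTG and 1 CCAAT, Pdk2 held 2 ACGTG on opposite strands of the same palindrome and 3 CCAAT, and Pdk4 held 1 GCGTG and 1 CCAAT. The RefSeq table had windows of 300 bases around 11 starts of 9 members, Pdp1 not among them. On either strand, GCGTG was in 6 of these 11 windows, ACGTG in 4 and CCAAT in 6, beside 32.4%, 19.6% and 37.4% of all 32851 windows. The nuclear receptor motif AGGTCA and its extended form TCAAGGTCA, known from ERR factors, were in 0 of the 11 windows, beside 16.3% and 0.423% of all windows. The NRF1 core CGCATGCG and TATAAA were also in 0 of 11, beside 1.87% and 13.6%. The first windows of the 9 members had 60.7 to 68.0% G or C, or 57.7% for the second start of Pdk2 and 40.3% for that of Pdk1, with a median of 52.7% over all windows. These matches describe letters in the windows and were not tied to any expression value.

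To compare levels between genes, normalized counts were divided by the length of all annotated exons in kb. In PKM2fl/fl sham hearts the order was Pdha1 (3636 ± 169 per kb), Pdk4 (1807 ± 1096), Pdhb (1750.1 ± 62.5), Pdk2 (621 ± 39.0), Dlat (441 ± 20.3), Pdk1 (397 ± 48.7), Pdhx (318 ± 16), Pdp1 (139.7 ± 10.7), Pdp2 (133 ± 28.8) and Pdk3 (10.3 ± 1.62; SD, n = 3 each). The hearts of Pdk4 and Pdhb, of Dlat and Pdk1, and of Pdp1 and Pdp2 overlapped, and the other neighbours in that order did not. In PKM2fl/fl MI hearts the order began with Pdha1 (1259.8 ± 391 per kb), Pdk4 (979 ± 341) and Pdhb (592 ± 179). Pdha1 overlapped Pdk4 and Pdk4 overlapped Pdhb, while Pdhb did not overlap Pdk1, the next. Pdk3 was still last at 35.8 ± 11.3 per kb, now overlapping Pdp2 at 47.6 ± 17.6 (SD, n = 3 each). In PKM2-/- MI hearts Pdk3, at 40.5 ± 3.38 per kb, lay above Pdp2, at 25.5 ± 2.50 per kb, without overlap (SD, n = 3 each). The order depends on the length used: with the longest transcript in place of all exons, Pdhb came before Pdk4 in sham hearts of both genotypes, and Pdk3 (56.7 ± 17.8 per kb) came before Pdp2 (48.2 ± 17.8; SD, n = 3 each) in PKM2fl/fl MI hearts.

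Pdk4 made up the largest share of kinase transcripts per kb of exon in all 16 hearts, and in 13 of them per kb of the longest transcript. Its share was 46.0, 74.8 and 59.6% in PKM2fl/fl sham and 73.2, 59.8 and 73.9% in PKM2fl/fl MI hearts, with means of 60.1 ± 14.4 and 68.9 ± 7.95% (SD, n = 3 each). In PKM2-/- it was 63.6, 77.4 and 54.7% in sham and 60.01, 73.1 and 77.1% in MI hearts, with means of 65.2 ± 11.4 and 70.1 ± 8.95% (SD, n = 3 each). The groups overlapped in both genotypes (exact permutation test, two-sided, p = 0.6 and p = 0.7, where the smallest p for 3 against 3 is 0.1). The mean difference of 8.79 percentage points in PKM2fl/fl hearts ran from 1.70 without replicate 1 to 16.1 without replicate 2 of the sham hearts. That of 4.83 percentage points in PKM2-/- hearts turned to -0.449 without replicate 3 of the sham hearts. By the longest transcript, the Pdk4 share was 46.2% in PKM2fl/fl sham and 56.1% in MI hearts.

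The share of Pdk3 moved from 0.519, 0.296 and 0.346% in PKM2fl/fl sham to 1.65, 2.34 and 4.17% in MI hearts. In PKM2-/- it moved from 0.533, 0.242 and 0.476% to 4.56, 3.37 and 2.91%. Neither genotype showed overlap (exact permutation test, two-sided, p = 0.1 in each, the smallest that 3 against 3 allow). The share of Pdk2 was 23.9 ± 8.09% in sham and 13.5 ± 6.63% in MI hearts of PKM2fl/fl mice, and 22.1 ± 8.03 and 10.6 ± 3.49% in PKM2-/- mice (SD, n = 3 each), with overlap in both (exact permutation test, two-sided, p = 0.2 in each). Since shares add up to the whole, a scattered Pdk4 moves the shares of the other kinases too.

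Of both phosphatases, Pdp1 made up 57.7, 47.4 and 49.6% in PKM2fl/fl sham and 58.5, 61.6 and 71.7% in MI hearts. In PKM2-/- it made up 52.3, 44.2 and 50.5% in sham and 78.7, 67.5 and 67.6% in MI hearts. In each genotype every MI heart was above every sham heart, and the mean share was 12.4 percentage points higher after MI in PKM2fl/fl and 22.3 in PKM2-/- hearts (two-sided exact permutation test, p = 0.1 in each).

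**Figure D3:**
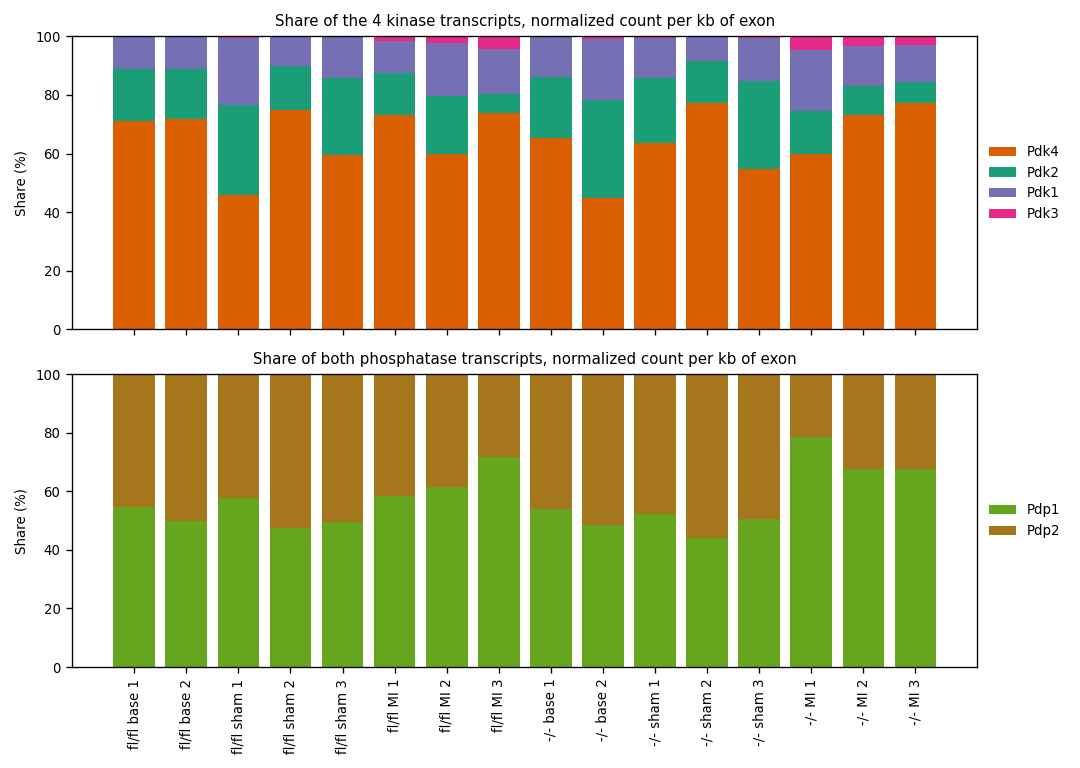
Share (y axis, %) of each kinase among the 4 kinases (upper bars) and of each phosphatase among both (lower bars), in normalized count per kb of exon, for each of the 16 hearts (x axis). Pdk4 is the largest kinase share in every heart, Pdk3 is visible in the MI hearts, where it reaches 4.56%, and the Pdp1 share is 58.5 to 78.7% in MI hearts.

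Markers of other cell types moved with MI in the same hearts. The mean log2 level of the 12 cardiomyocyte markers, whose defining genes include Myh6, Tnnt2 and Tnni3, changed by -1.62 in PKM2fl/fl and -1.96 in PKM2-/- hearts. Of these markers, 11 and 12 of 12 were called lower. Of the 11 leukocyte markers, 9 were called higher in each genotype, and their summed level was 5749 to 11715 normalized counts in the sham and 24406 to 42345 in the MI hearts. Of the 8 fibroblast markers, 6 were called higher and 1 lower in each genotype, with a summed level of 25357 to 46994 in sham and 143683 to 198375 in MI hearts. No marker of these 3 lists was at 0 in any group. The endothelial markers had a summed level of 24173 to 27917 in sham and 22613 to 26651 in MI hearts, with 2 of 7 higher and 2 lower in PKM2fl/fl and 1 higher and 3 lower in PKM2-/- hearts. Of the erythroid markers 0 of 5 were called in either genotype. Adipocyte markers summed to at most 186 normalized counts, with 1 of 6 tested and 0 called, and Lep at 0 in all groups but the PKM2-/- MI hearts. Of the 4 atrial markers, which were looked at for tissue outside the ventricle, Nppa, also induced by stress in ventricles, was higher in each genotype and the other 3 were not called. The part of these cell types in the changes of the 10 genes was not tested.

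Each gene was also expressed relative to the mean log2 level of the cardiomyocyte markers. This difference stays at 0 where a gene falls as that mean does. The markers themselves did not fall alike. Their log2 fold changes ran from -2.07 to -0.74 in PKM2fl/fl and from -2.68 to -1.22 in PKM2-/- hearts. In PKM2fl/fl hearts the MI minus sham difference was 0.04 for Pdha1, 0.01 for Pdhb, 0.18 for Dlat and 0.08 for Pdp2, with overlapping groups in each. It was 0.51 for Pdhx, 0.63 for Pdk1, 0.83 for Pdp1 and 3.38 for Pdk3, each without overlap. For each of these genes replicate 3 of the MI hearts lay highest relative to the sham mean. That heart was at 0.91 for Pdhx, 1.27 for Pdk1, 1.40 for Pdp1 and 4.65 for Pdk3. Replicates 1 and 2 were at 0.25 and 0.35, 0.28 and 0.35, 0.40 and 0.69, and 2.83 and 2.66 in the same order. Pdk2, at -0.26, and Pdk4, at 0.86, overlapped. How many of all genes separate on this scale was not computed, so no separation here is read as particular to these genes. In PKM2-/- hearts Pdk4, at 0.65, overlapped and the other members did not. The difference was 0.28 for Pdha1, 0.21 for Pdhb, 0.36 for Dlat, 0.76 for Pdhx, 0.90 for Pdk1, 0.97 for Pdp1 and 3.70 for Pdk3, and it was -0.50 for Pdk2 and -0.42 for Pdp2. Every comparison without overlap had p = 0.1, the smallest that 3 hearts against 3 allow (exact permutation test, two-sided). Pdk2 thus fell further than the marker mean in each PKM2-/- MI heart, at -0.59, -0.41 and -0.50 relative to the sham mean. Pdp2 lay at -0.920, -0.155 and -0.174 in these MI hearts and at -0.124, 0.268 and -0.143 in sham hearts. Its mean rested mostly on replicate 1, and the groups nearly met. Of the single markers, Myh6 (log2 fold change -2.68) and Atp2a2 (-2.54) fell further than Pdk2 (-2.46) and Pdp2 (-2.38), and the others fell less. The E1 subunits differed from the marker mean by 0.28 for Pdha1 and 0.21 for Pdhb.

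**Figure D4:**
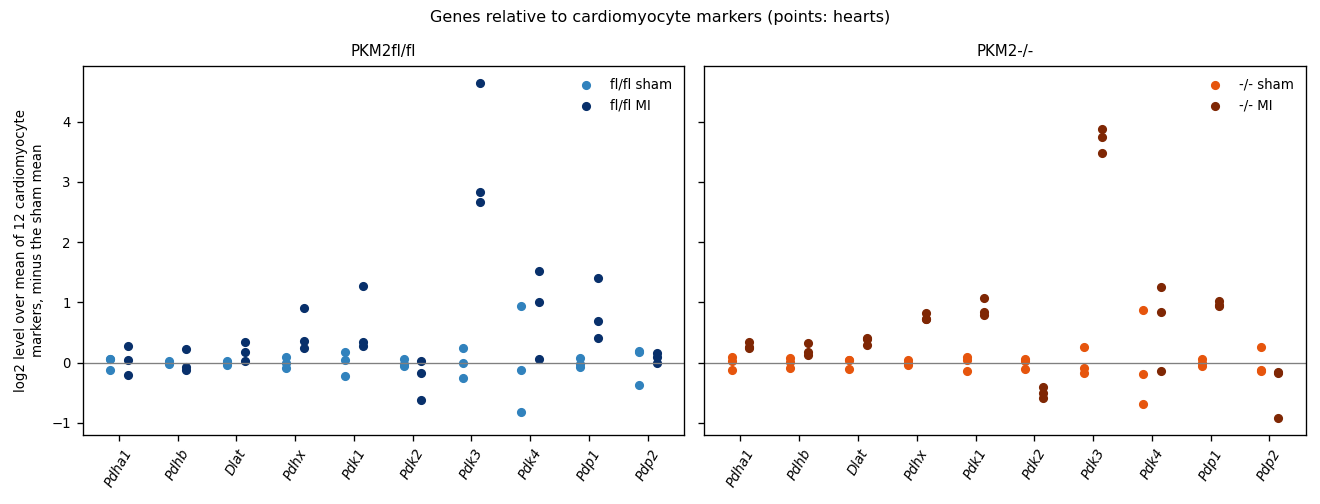
Log2 level of each gene minus the mean log2 level of 12 cardiomyocyte markers, shown relative to the sham mean (y axis), in sham and MI hearts (points) of PKM2fl/fl (left) and PKM2-/- mice (right). Pdha1 and Pdhb lie between -0.20 and 0.35 in MI hearts and are above all sham hearts in PKM2-/- mice, Pdk3 lies 2.66 to 4.65 above, and Pdk2 and Pdp2 lie below 0 in all PKM2-/- MI hearts. For Pdp2 the closest PKM2-/- MI and sham hearts lie at -0.155 and -0.143.

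The next question was whether loss of PKM2 changed these genes. At baseline 0 of the 10 genes were called between genotypes by limma and 0 had an unadjusted p under 0.05, beside 0.00972% and 3.64% of all genes. Pdk4 had 8867 and 9968 normalized counts in PKM2fl/fl and 7551 and 3073 in PKM2-/- hearts, lower in both, with a log2 difference of -0.96 (SE 0.55, unadjusted p = 0.101, adjusted p = 1, limma). Without 1 PKM2-/- heart or the other this difference ran from -0.32 to -1.61. Pdha1, at 18524 and 18583 in PKM2fl/fl and 18909 and 19161 in PKM2-/- hearts, differed by 0.04 (SE 0.23). The genotypes did not overlap at baseline for 4 of the 10 genes, Pdk4, Pdp1, Pdhb and Pdha1. How many of all genes did not overlap there was not counted, so nothing is read from these separations. Between 2 hearts and 2 hearts an exact permutation test cannot go below p = 0.333. In sham hearts 0 of the 10 genes were called and 0 had an unadjusted p under 0.05 by limma, beside 0.00972% and 9.95% of all genes. Differences of PKM2-/- against PKM2fl/fl sham hearts ran from -0.15 for Pdha1 to 0.31 for Pdk4 on the log2 scale, and the genotypes overlapped for all 10 genes, while 16.5% of all genes did not overlap.

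In MI hearts 0 of the 10 genes were called by limma and 2, Pdp2 and Pdp1, had an unadjusted p under 0.05, beside 0.967% of all genes called and 17% with an unadjusted p under 0.05. Pdp2 had 322, 348 and 159 normalized counts in PKM2fl/fl and 131, 158 and 154 in PKM2-/- MI hearts. All PKM2-/- values were below all PKM2fl/fl values, as in 18.9% of all genes in either direction, but the gap was that from 159 to 158. The log2 difference was -0.82 (SE 0.25, adjusted p = 0.111, limma), and Pdp2 was called by DESeq2 (log2 -0.90, adjusted p = 0.0161). Pdk2 had 2288, 2022 and 658 in PKM2fl/fl and 1193, 956 and 887 in PKM2-/- MI hearts, with overlap, since replicate 3 of PKM2fl/fl was the lowest of the 6. Its log2 difference was -0.53 (SE 0.32, adjusted p = 0.418, limma). Pdp1 differed by -0.33 (SE 0.15, adjusted p = 0.269, limma), again with overlap.

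These values turned on that heart. Without it, 4 of the 10 genes were called lower in PKM2-/- MI hearts by limma: Pdk2 (log2 -1.10, SE 0.13, adjusted p = 1.66e-04), Pdp2 (-1.18, SE 0.19, adjusted p = 0.00115), Pdha1 (-0.52, SE 0.13, adjusted p = 0.0211) and Pdhb (-0.49, SE 0.13, adjusted p = 0.0236). Of all genes, 11.1% were then called. With that heart, Pdha1 differed by -0.25 (SE 0.19, adjusted p = 0.530) and Pdhb by -0.21 (SE 0.19, adjusted p = 0.619, limma). The 2 PKM2fl/fl hearts left had cardiomyocyte markers of 15.09 and 15.11 on the mean log2 scale, above the 14.64, 14.14 and 14.12 of the PKM2-/- MI hearts, and the heart left out had 13.93. Of the 6 MI hearts, the lowest in these markers was also the lowest in Pdk2, Pdha1 and Pdhb, and the highest 2 were also the highest 2. For Pdp2 the highest 2 were the same hearts, but the lowest, at 131, was replicate 1 of the PKM2-/- MI hearts, with markers of 14.64. The part of the marker difference in the genotype difference was not tested.

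**Figure D5:**
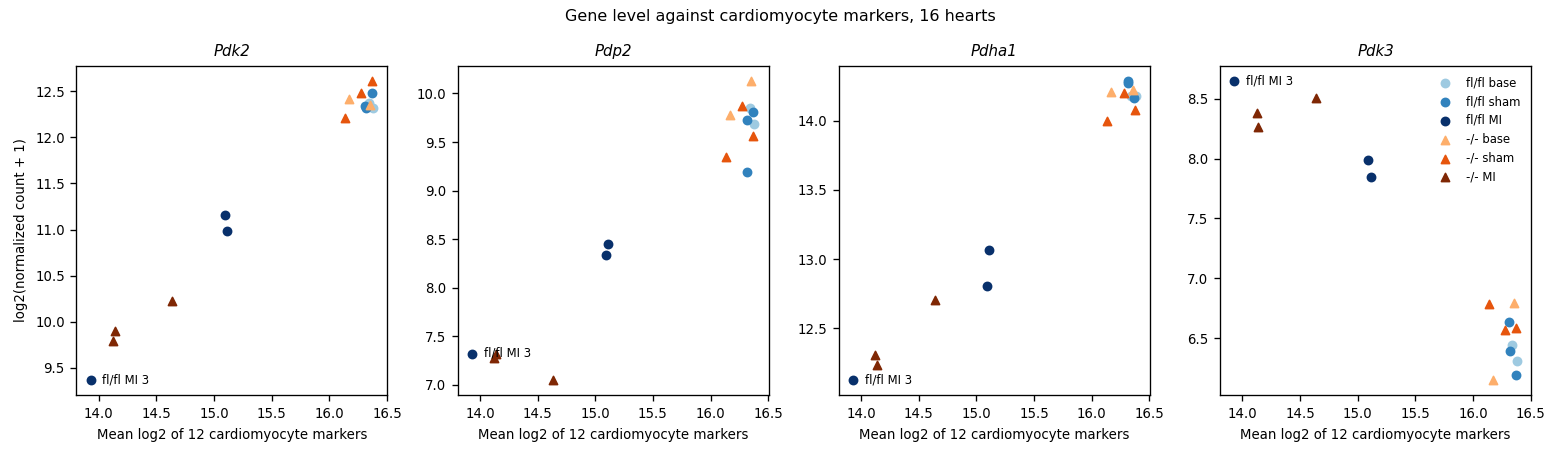
Log2 of the normalized count plus 1 of Pdk2, Pdp2, Pdha1 and Pdk3 (y axes) against the mean log2 level of 12 cardiomyocyte markers (x axes) in 16 hearts, with circles for PKM2fl/fl and triangles for PKM2-/-. Replicate 3 of the PKM2fl/fl MI hearts, at 13.93, lies with the PKM2-/- MI hearts and away from the other PKM2fl/fl MI hearts at 15.09 and 15.11.

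Averaged over baseline, sham and MI, 0 of the 10 genes were called between genotypes by limma and 0 had an unadjusted p under 0.05, beside 0.102% and 11.4% of all genes, and the differences ran from -0.30 to 0.18 on the log2 scale. Without replicate 3 of the PKM2fl/fl MI hearts, 1 gene, Pdk2, was called for this mean (log2 -0.33, SE 0.08, adjusted p = 0.0286, against -0.15 with it, limma), beside 3.49% of all genes. The test of whether MI acted differently in PKM2-/- than in PKM2fl/fl hearts called 0 of the 10 genes and 0% of all genes by limma, with 1 of the 10, Pdp2, and 8.28% of all genes at an unadjusted p under 0.05. By edgeR with its filter on low counts 0 genes of 23161 were called, and by DESeq2 52. The difference was -0.84 for Pdp2 (SE 0.35, adjusted p = 0.566, limma) and -0.58 for Pdk2 (SE 0.45, adjusted p = 0.754, limma). Without replicate 3 of the PKM2fl/fl MI hearts it was -1.20 for Pdp2 (SE 0.25, adjusted p = 0.0244) and -1.15 for Pdk2 (SE 0.18, adjusted p = 0.00632, limma), and 2.37% of all genes were called.

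Surgery without ligation was compared with no surgery in each genotype, which uses the same sham hearts as the MI comparison. In PKM2fl/fl hearts 0 of the 10 genes were called by limma and 0 had an unadjusted p under 0.05, beside 0.19% and 8.81% of all genes. In PKM2-/- hearts 0 of the 10 were called and 1, Pdp1, had an unadjusted p under 0.05, beside 5.14% of all genes called and 18.9% with an unadjusted p under 0.05. In the same PKM2-/- comparison 6 of 11 leukocyte and 3 of 8 fibroblast markers were called higher in sham hearts, and their part was not tested. Pdp1 had 965 and 993 normalized counts in the PKM2-/- baseline hearts, above the 670.4, 703 and 726 of the sham hearts, and differed by -0.48 (SE 0.17, adjusted p = 0.110, limma). In PKM2fl/fl hearts Pdp1 had 934 and 862 at baseline, also above all sham hearts, and differed by -0.23 (SE 0.17, adjusted p = 0.819, limma). Pdp1 did not overlap between baseline and sham hearts in either genotype, as 13.5% of all genes did not (4.92% lower in sham hearts in both); within PKM2fl/fl alone it was 32.5% of all genes. Pdha1 did not overlap in PKM2-/- hearts, as 34.5% of all genes did not, with a difference of -0.12 (SE 0.21, adjusted p = 0.833, limma).

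The other genes of the pathway were looked at in the MI comparison. Of 7 further genes of the complex, its lipoic acid cofactor and pyruvate import, 6 were called lower in each genotype and 1, the lipoyltransferase gene Lipt2, was not called. Dld, the E3 subunit, had log2 fold changes of -1.36 in PKM2fl/fl (SE 0.14, adjusted p = 3.00e-06) and -1.39 in PKM2-/- hearts (SE 0.14, adjusted p = 1.54e-06, limma). The mitochondrial pyruvate carrier genes Mpc1 and Mpc2 were at -1.36 and -1.68 in PKM2fl/fl and at -1.53 and -1.499 in PKM2-/- hearts. All 7 genes of the sister 2-oxoacid dehydrogenases and their regulators were lower in each genotype, with list medians of -1.18 and -1.42. Ogdh, the E1 of the 2-oxoglutarate complex, fell (-1.40 in PKM2fl/fl and -1.91 in PKM2-/- hearts), as did Dlst, its E2 (-1.18 and -1.34), and Ppm1k, the phosphatase of the branched-chain complex (-1.52 and -2.05). All 14 TCA cycle genes were also lower in each genotype, with medians of -1.43 and -1.57, among them Cs (-1.19 and -1.54) and Sdha (-1.65 and -1.82).

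Of 13 transcription factors and coactivators known to act on Pdk genes, 9 were lower in each genotype. Ppargc1a, the coactivator PGC-1 alpha, fell (-1.92 in PKM2fl/fl and -2.72 in PKM2-/- hearts), as did Esrrg, an ERR factor (-1.53 and -2.35), and Foxo3, a forkhead factor (-0.95 and -0.87). Called higher were Hif1a and Ppard in PKM2fl/fl (2 of 13) and Hif1a alone in PKM2-/- hearts (1 of 13). Of the 13 HIF-1 target genes tested, 5 were higher and 3 lower in PKM2fl/fl, and 5 higher and 4 lower in PKM2-/- hearts, with medians of 0.08 and 0.26. Ldha (-0.01 and 0.14) and Pgk1 (0.08 and 0.26) were not called in either genotype and Hk2, a hexokinase, fell (-1.04 and -1.17). The median over all genes tested was 0.00 in PKM2fl/fl and 0.01 in PKM2-/- hearts.

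Over the 16 hearts, the genes whose log2 level was most like that of a member were sought among 13469 genes with a mean of at least 100. The correlations describe 6 groups that differ mostly by MI and share library and depth, and carry no test. For Pdha1 the closest were Sdha (r = 0.999), Idh2 (0.998) and Dld (0.998), for Pdhb they were Vdac1, Sdhc and Suclg1 (0.996 to 0.997), for Dlat Atp5b, Vdac1 and Pdhx (0.995 to 0.996), and for Pdhx Vdac1, Atp5b and Acadl (0.995 to 0.997). For Pdk1 they were Ecpas, Cd36 and Ppp1r3a (0.991 to 0.992), for Pdk2 Fndc5, Hrc and Sgca (0.996 to 0.997), and for Pdk3 Fmr1, Psat1 and Flna (0.988 to 0.990). For Pdp1 they were Tef, Hlf and Stc2 (0.982 to 0.988) and for Pdp2 BC037032, Slc25a42 and Fahd1 (0.988). Pdk4 had no gene above Znrf1 (r = 0.854), followed by Gm10602 (0.809) and Ucp3 (0.785). Within groups, taking each heart's deviation from its group mean, the 4 subunits correlated with each other at r = 0.90 to 0.95, and Pdk4 correlated with the other 9 genes at r = -0.37 to 0.32.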

How the data were processed

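RNA of 16 left ventricles was depleted of rRNA and sequenced. The authors aligned reads to mm10 with HISAT2, counted them with featureCounts and deposited, per gene and library, a normalized signal (count over DESeq2 size factor). The deposited table also holds the authors' own baseline comparison (log2 fold change, Wald score, p-value), not used here. Strand and multi-mapping settings are not given in the sources used here. All columns with a sample were used, and 100% of values were whole reads (within 0.02) after division by the library's step.

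limma 3.58.1 (trend) was fitted to log2(normalized count + 1) over 6 group means for 20576 genes (mean of 10 or more), with Benjamini-Hochberg adjustment. Fold changes are on that scale. Alternatives were edgeR 4.0.16 and DESeq2 1.42.0 on the recovered reads, which called 10741 and 10831 genes for MI against sham in PKM2fl/fl hearts (10299 by limma), other scaling, filters and pseudocount, a replicate block, and each library left out. Shares used exact permutation tests. Exon lengths came from GENCODE M39, positions and promoters from RefSeq (GRCm38.p6).

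The members and gene lists were chosen with earlier results of these data known. All members are named, with the 3 most similar genes of each and at most 3 members per list with the largest mean value, and others where counts of 5 or fewer fall outside that rule; 1 gene that the rule names is not reported here. Each library is from its own mouse, and same-numbered libraries did not deviate together.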

Additional observations from a re-analysis of the deposited data

How the results depend on the processing

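The recomputed fold changes counted here cover MI against sham for all members. They also cover Pdk2, Pdp1 and Pdp2 between genotypes in MI hearts, Pdk4 between genotypes at baseline, Pdp1 between sham and baseline in PKM2-/- hearts, and Pdp2 in the interaction. Of these 367, 0 reversed direction, 354 kept their side of the threshold, 11 became called and 2 lost their call. Outside that set the Pdk3 interaction turned from -0.02 to 0.22 without replicate 3 of the PKM2fl/fl MI hearts. Leaving out each replicate in turn, members called ran from 9 to 9 for MI against sham in PKM2fl/fl and from 9 to 10 in PKM2-/- hearts, from 0 to 4 between genotypes in MI hearts, from 0 to 1 (Pdk2, without replicate 3 of the PKM2fl/fl MI hearts) for the mean of 3 treatments and from 0 to 2 for the interaction. It gave a Pdk4 share difference of -0.449 to 10.9 percentage points in PKM2-/- hearts. With edgeR and no filter on low counts, 2 members (Pdp2 and Pdk2) were called between genotypes in MI hearts beside 4.26% of all genes, 2 (the same symbols) in the interaction beside 1.34%, 1 (Pdk4) between genotypes at baseline beside 0.533%, and 2 (Pdp1 and Pdk4) between sham and baseline in PKM2-/- hearts beside 4.77%. In the same fit Pdk4 was called after MI in PKM2fl/fl hearts (log2 -0.90), beside 26% of all genes. DESeq2 called 1 (Pdp2) between genotypes in MI hearts beside 5.64% of genes with an adjusted p, and the fit of only the compared libraries called 1 (Pdp1) between sham and baseline in PKM2-/- hearts beside 3.67% of all genes. The cause of these differences was not tested. Scaling to total reads outside rRNA-related and mitochondrial genes moved the median of all genes for MI against sham in PKM2-/- hearts from 0.01 to 0.23 and for the interaction from -0.01 to 0.21. It turned no member around for MI against sham. In the interaction only Pdp2 was followed under this scaling, and it kept its direction. The direction of the other members, with values as small as -0.02 for Pdk3 before this scaling, was not checked there. The labels state no pairing of animals by replicate number. Over 36 same-numbered pairs of libraries the median correlation of deviations was -0.0266 and 1 was over 0.1. Such correlations cannot show that no pairing existed. With the replicate block, 9 and 10 members were called for MI against sham and 0 in every other comparison. For the members, depth limits Pdk3 most, with 60 reads in its shallowest heart.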

Other observations

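Of 15 PPAR target genes, 13 were lower and 2 higher after MI in each genotype, with median log2 fold changes of -1.69 in PKM2fl/fl and -1.92 in PKM2-/- hearts. Both higher genes, Angptl4 (2.81 and 3.55) and Plin2 (1.66 and 2.03), were named after their values were seen. Angptl4 encodes a secreted inhibitor of lipoprotein lipase and Plin2 a lipid droplet coat protein. Cd36, the fatty acid transporter, fell (-1.34 and -1.47), as did Fabp3, the heart fatty acid binding protein (-1.93 and -1.84), and Hadha, a subunit of the mitochondrial trifunctional protein (-1.81 and -1.92). Of 6 glucocorticoid response genes, 4 were lower in PKM2fl/fl and 3 in PKM2-/- hearts and 0 were higher. Zbtb16 (-1.88 and -1.37) and Klf9 (-1.21 and -0.98) fell, while Fkbp5 (-0.15 and 0.39) was not called (limma, adjusted p under 0.05 for each call).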
